A study of Mus musculus with 8 samples.

Results

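The extracellular matrix genes described here are 51 of the 24907 genes listed in RNA-seq data from ASZ001, a mouse basal cell carcinoma line. They are the 43 genes listed under the symbol of a collagen chain, Col17a1 left out, together with Fbn1 and Fbn2 (fibrillins), Fn1 (fibronectin) and the 5 lysyl oxidase genes Lox and Loxl1 to Loxl4. Messenger RNA was measured in 8 libraries, 2 in each of 4 groups. The cells were transfected either with a non-silencing shRNA (called NS cells) or with one that targets Tgfbr1, a TGF-beta receptor gene (knockdown cells), and received either DMSO or Dox together with 4OHT (short for doxycycline and 4-hydroxytamoxifen), here called the drugs. RasV12, an active form of Ras, stands in the labels of the 4 libraries given Dox and 4OHT. No library received the drugs without RasV12, so effects of the drugs and of Ras cannot be told apart. All 4 groups are 1 cell line, and the labels do not state if both libraries in a group are separate cultures. The p-values therefore cover no more than the spread among these libraries, and that spread may be technical.

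Collagens are made of 3 chains wound into a triple helix, and each chain is the product of its own gene. Fibrillar collagens build the fibres of connective tissue, type IV collagens form the sheet of the basement membrane on which epithelial cells sit, and type VII collagen anchors that sheet to the dermis. Fibrillins form microfibrils that carry elastin and hold TGF-beta in latent form, fibronectin is laid down as an early matrix for cells to adhere to, and lysyl oxidases cross-link collagen and elastin. TGF-beta is a known inducer of many matrix genes in mesenchymal and epithelial cells.

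To show the regulatory sequence beside 4 genes that fell or rose clearly in the comparisons described further on, and that were picked after their values were seen, the bases upstream of the annotated starts of Col11a1, Col7a1, Col4a5 and Loxl4 are printed from RefSeq (GRCm38.p6), 5′ to 3′ on the strand of the gene. Bases that lie in an annotated exon were left out, 34 for Col4a5 and 7 for Loxl4. Capitals mark CAGAC, a short motif that the SMAD proteins of TGF-beta signalling can bind (GTCTG where it lies on the other strand), and GGGCGG, the core bound by Sp1, on either strand. The AP-1 motif TGANTCA was searched as well and is in none of these 4 windows. No 2 of these motifs overlap here.
Col11a1 (chr3:114030290-114030539, plus strand): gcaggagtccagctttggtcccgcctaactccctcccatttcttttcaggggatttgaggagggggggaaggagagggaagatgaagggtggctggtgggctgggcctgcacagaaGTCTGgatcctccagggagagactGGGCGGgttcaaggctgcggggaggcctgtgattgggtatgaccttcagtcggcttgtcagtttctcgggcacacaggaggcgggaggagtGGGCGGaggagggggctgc
Col7a1 (chr9:108953336-108953585, plus strand): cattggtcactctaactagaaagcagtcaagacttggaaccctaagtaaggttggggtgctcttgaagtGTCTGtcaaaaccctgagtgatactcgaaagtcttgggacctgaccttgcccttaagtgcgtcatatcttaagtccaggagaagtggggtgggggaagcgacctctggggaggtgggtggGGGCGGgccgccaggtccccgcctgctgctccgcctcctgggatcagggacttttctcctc
Col4a5 (chrX:141475169-141475384, plus strand): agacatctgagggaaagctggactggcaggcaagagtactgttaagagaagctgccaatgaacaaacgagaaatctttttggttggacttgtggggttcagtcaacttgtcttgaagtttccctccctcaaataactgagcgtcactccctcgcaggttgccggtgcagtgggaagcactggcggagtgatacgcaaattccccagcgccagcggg
Loxl4 (chr19:42612814-42613056, minus strand): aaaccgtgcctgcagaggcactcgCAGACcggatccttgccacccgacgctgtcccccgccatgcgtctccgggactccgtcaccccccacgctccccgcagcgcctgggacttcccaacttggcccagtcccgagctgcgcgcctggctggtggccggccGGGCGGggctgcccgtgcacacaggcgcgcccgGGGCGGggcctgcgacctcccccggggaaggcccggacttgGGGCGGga
CAGAC stands 134 bases upstream of the start of Col11a1, 181 upstream of Col7a1 and 226 upstream of Loxl4, and it is not in the Col4a5 window. Of all 32851 windows of 250 bases before a start in the table, 42.2% hold CAGAC, 32.7% GGGCGG and 6.75% TGANTCA. Windows were listed for 36 of the 51 genes, 13 of them among the 19 tested below. CAGAC was in 7, GGGCGG in 10 and TGANTCA in 1 of these 13. These counts are of full windows. The GGGCGG counted for Col4a5 lies at least in part in its 34 left-out exon bases, so it is not marked above. A match of letters describes the sequence and is no evidence of binding.

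The libraries held 12724604.5 to 16233379 estimated counts. Tgfbr1 was at 77.1 and 80.4 CPM (counts per 1e6, scaled by library) in NS cells under DMSO, at 104 and 91.6 CPM in drug-treated NS cells, and at 8.08 to 10.2 CPM in the 4 knockdown libraries. Marker genes of cell types gave 15130 to 27980 CPM in sum for 8 keratinocyte genes and 1.56 to 4.76 CPM for 10 fibroblast genes, of which Thy1, Lum, Dpt, Fap and Tcf21 had no count in any library. The fibroblast sum was 3.48 and 4.05 CPM in NS and 2.48 and 3.13 CPM in knockdown cells (both DMSO-treated), and 3.90 and 4.76 against 1.56 and 2.27 CPM under Dox and 4OHT. Of the keratinocyte genes 4 rose and 4 fell with the knockdown under DMSO, and their sum, most of it Krt5 and Krt14, was 27980 and 27630 CPM in NS and 19090 and 18300 CPM in knockdown cells (both DMSO-treated), and 15130 to 15400 CPM in the 4 drug-treated libraries. The part of either in the results below was not tested. The 5 cartilage genes reached at most 0.586 CPM in sum. Markers of smooth muscle and pericytes (0.191 to 2.46 CPM), endothelium (23.0 to 38.3 CPM, mostly Pecam1), immune cells (4.51 to 15.5 CPM, mostly Cd68) and pigment cells (3.37 to 6.22 CPM) were low beside the keratinocyte sum. Some matrix genes described below lie at or under these levels. The smooth muscle and pericyte sum was 2.46 and 1.21 CPM in NS and 0.191 and 0.492 CPM in knockdown cells under DMSO. Cd68 in knockdown cells was at 4.51 and 4.88 CPM under DMSO and 15.5 and 14.9 CPM under the drugs. The part of these in the results below was not tested. Fewer cells of a kind and less RNA per cell cannot be told apart in such bulk samples.

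Most collagen genes were near silent in these cells. Of the 51 genes, 19 had enough counts to be tested, and the other 32 held 0.0422% of all counts of the group. Among those 32, 8 had no count in any library, Col3a1 among them, and 12 more never exceeded 3 counts. Col1a1 had 34 counts over all 8 libraries and Col1a2 had 12, although both are the chief collagens of connective tissue. Type VI collagen is built from different chains, of which Col6a1 was measured at up to 91 counts in a library, Col6a2 at up to 4 and Col6a3 at up to 1. Col9a3 likewise reached 278 counts, with none for its partner Col9a2 and at most 0.5 for Col9a1.

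Per length of transcript, the RNA of these genes was dominated by fibronectin and the type IV collagens. Fn1 made up 24.5% to 37.1% of the summed CPM per kb of the 51 genes. Col4a2 followed in every library with 13.2% to 18.9%. Col18a1, a heparan sulphate collagen of basement membranes, took 10.0% to 13.1%, Col8a1, a short-chain collagen, 8.96% to 11.6%, Col4a1 6.45% to 12.8% and Col4a5 3.14% to 10.6%, and the order of these 4 differed between libraries. Together the 51 genes took 0.553% to 0.651% of the counts of a library. Within that range, the makeup of this RNA differed between the groups. Col4a1 was 11.3% and 11.8% of it in NS cells under DMSO against 6.65% and 6.45% in knockdown cells under DMSO, and the 42 least abundant genes were 6.87% and 6.46% against 2.15% and 1.91%.

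**Figure D1:**
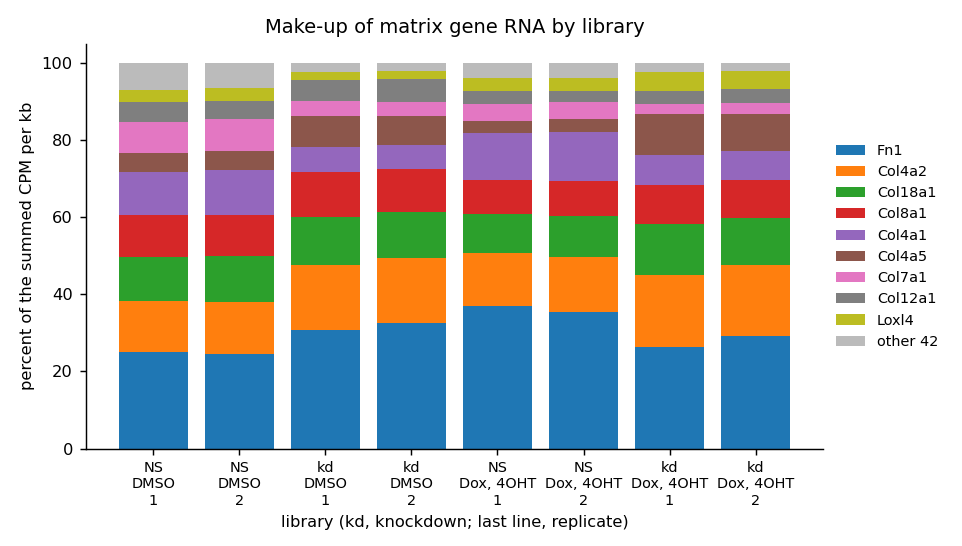
Percent of the summed CPM per kb of the 51 matrix genes (vertical axis) taken by each of the 9 most abundant genes and by the other 42, in each of the 8 libraries (bars). Fn1 takes the most in every library, and Col4a5 widens from 3.14% and 3.31% in NS cells under Dox and 4OHT to 10.6% and 9.63% in knockdown cells under the same drugs.

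The first comparison, knockdown against NS cells under DMSO, shows how matrix genes differed where Tgfbr1 RNA was reduced, without the drugs. With 1 targeting shRNA, effects of lower Tgfbr1 and other effects of that shRNA cannot be told apart. Col11a1, Fbn2, Col9a3, Col6a1, Col7a1 and Col4a1 fell, whereas Col4a5, Col4a2 and Col16a1 rose. Of the 19 tested genes 10 fell and 3 rose at an adjusted p under 0.05 (edgeR's quasi-likelihood test, Benjamini-Hochberg over all 12538 genes tested). Over all genes 31.0% fell and 30.9% rose, 61.9% in all. At least 2-fold falls were found in 7 of the 19, against 6.58% of all genes, and at least 2-fold rises in none, against 4.12% (10.7% for both). Col5a1 is counted in these falls, in those with the drugs in NS cells and in the interaction below. It had enough counts to be tested only through NS cells under DMSO, where it was highest, so the filter favoured these calls. The median log2 change was -0.49 for the 19 and 0.00 for all genes.

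Under Dox and 4OHT the same comparison gave 9 lower and 7 higher of the 19, with 29.7% of all genes lower and 30.5% higher, 60.2% in all. At least 2-fold changes were 5 falls, of Col11a1, Fbn2, Col9a3, Col4a3 and Col6a1, against 4.67% of all genes, and 2 rises, of Col4a5 and Col4a6, against 5.61% (10.3% for both). The median log2 change was -0.33 for the 19 and -0.01 for all genes. Loxl4, whose product cross-links collagen, was lower in knockdown cells under DMSO and higher under the drugs.

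Dox and 4OHT against DMSO addresses the effect of activated Ras, given together with the drugs. In NS cells 13 of the 19 fell and 2 rose, while 21.3% of all genes fell and 20.8% rose (42.1% in all), and the median log2 change was -0.53 against 0.00. At least 2-fold falls were found in 6 of the 19 and in 2.68% of all genes, and rises of that size in none and in 1.56% (4.24% for both). DESeq2 called 9 of them, 8 lower and 1 higher, and 3106 of all genes against 5281 by edgeR. In knockdown cells 5 rose and 3 fell, with 19.5% and 16.6% of all genes (36.1% in all), and the median was 0.05 against 0.00. The 2 at least 2-fold rises were those of Col6a1 and Loxl4, against 1.99% of all genes, and no fall reached that size, against 0.686% (2.67% for both).

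The difference between these responses was tested as an interaction. It passed for 13 of the 19 genes, and for 12 of them the response in knockdown cells was the more positive, with 20.2% of all genes called in that direction and 18.0% in the other (38.2% in all). Fn1 was the exception. Differences of at least 2-fold were found for 6, all in that direction, against 3.53% of all genes in it, 0.758% in the other and 4.28% in both. Without any one of the 8 libraries fewer of these genes were called, and fewer over all genes as well. The count in NS cells was likewise lower without any one of the NS libraries, again for these genes and over all genes. For these genes it was also lower without either knockdown DMSO library, and higher without either knockdown library under the drugs. The comparisons share groups: every knockdown value under DMSO and every response in NS cells rests on the same 2 NS libraries under DMSO, so their counts are not independent.

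**Figure D2:**
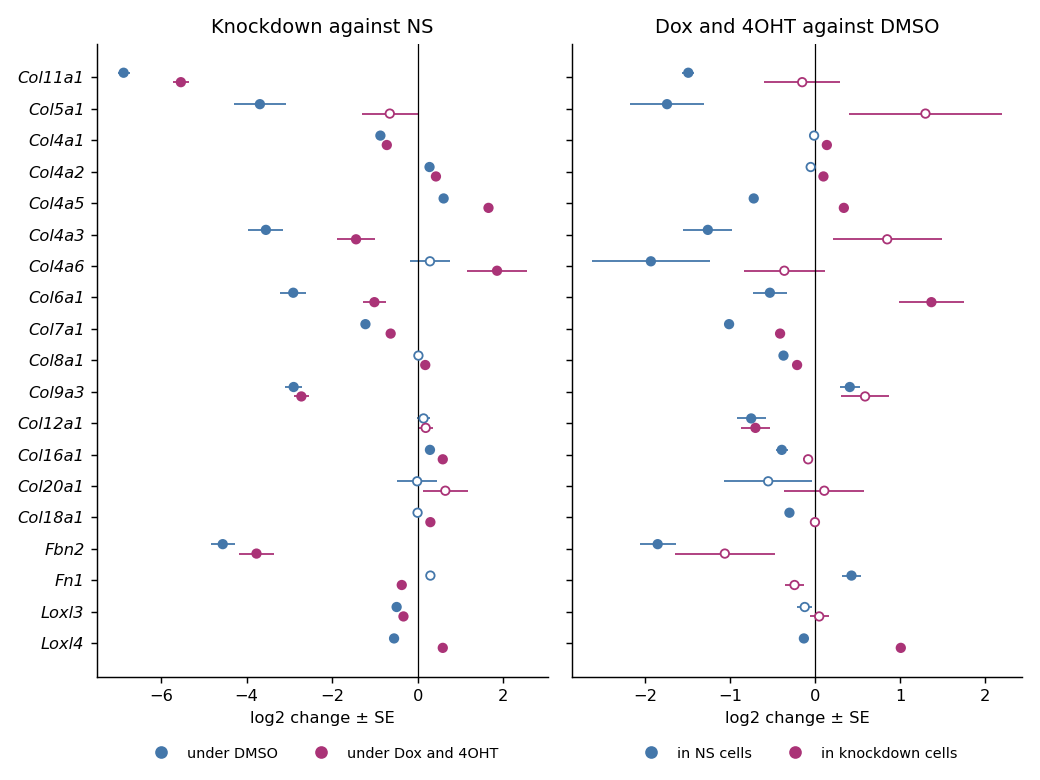
Log2 change ± SE of each of the 19 tested genes, for knockdown against NS cells (left) and for Dox and 4OHT against DMSO (right); filled points passed an adjusted p of 0.05 and open points did not. Col11a1 and Fbn2 lie farthest to the left for the knockdown under both treatments, and Loxl4, Col4a5 and Col6a1 lie on opposite sides of 0 in NS and knockdown cells on the right.

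Among the fibrillar collagens, Col11a1 showed the widest range of the tested matrix genes. The Col11a1 chain joins thin collagen fibrils of cartilage and of tumour stroma. It was at 118 and 126 CPM in DMSO-treated NS cells and at 47.0 and 40.1 CPM in drug-treated NS cells. In knockdown cells it was at 0.649 and 1.44 CPM under DMSO and at 0.847 and 1.02 CPM under the drugs, with 8.5 to 20.5 counts a library. The knockdown groups thus lay far below both NS groups, with no overlap, and overlapped each other. The log2 change with the knockdown was -6.88 ± 0.14 under DMSO, a fitted 118-fold fall (adjusted p = 4.04e-20), and -5.54 ± 0.18 under the drugs (adjusted p = 1.44e-16). It fell with the drugs in NS cells, by 1.49 ± 0.07 on the log2 scale (adjusted p = 2e-13), while the change in knockdown cells was -0.15 ± 0.45 (adjusted p = 0.826), from -0.61 to 0.59 when single libraries were left out. The difference of 1.34 ± 0.46 between these responses (adjusted p = 0.0271) was 0.87 without knockdown DMSO replicate 1 (adjusted p = 0.141), 2.07 without knockdown DMSO replicate 2 (0.00584), and 1.48 and 1.21 without either knockdown library under the drugs (0.081 and 0.144).

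Col5a1, a chain that starts collagen fibrils, was the other fibrillar gene tested, at far lower counts. It had enough counts to be tested only through NS cells under DMSO, so the filter favoured differences from that group. It had 23 and 23 counts in NS cells under DMSO and 2 and 1 in knockdown cells under DMSO, a ratio of 13.9 with a 95% interval of 4.47 to 69.8 (exact binomial, counting error only). With the drugs it had 4 and 7.5 counts in NS and 5.5 and 2.5 in knockdown cells. In CPM the NS libraries under DMSO were the highest (1.43 and 1.63) and the knockdown libraries under DMSO the lowest (0.153 and 0.0703), and the drug-treated libraries lay between them (0.195 to 0.549) with overlap of the genotypes. Its fall with the drugs in NS cells was -1.74 ± 0.44 (adjusted p = 0.00218; 0.12 by DESeq2). Under the drugs the knockdown change was -0.65 ± 0.66 (adjusted p = 0.406). The interaction of 3.04 ± 1.01 (adjusted p = 0.0184) rests on the 3 counts of knockdown cells under DMSO and did not pass without knockdown DMSO replicate 2 (2.59, 0.0897), NS Dox-4OHT replicate 1 (2.66, 0.0544) or knockdown Dox-4OHT replicate 1 (2.22, 0.29).

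The type IV collagen genes did not move together. Col4a1 and Col4a2 encode the chains of the common basement membrane network and stand head to head on chromosome 8, with annotated starts at 11312826 and 11312805 (GRCm38.p6), so that their first 22 bases overlap on opposite strands. Col4a1 was at 674 and 690 CPM in NS and 374 and 372 CPM in knockdown cells (both DMSO-treated). In the drug-treated groups it measured 678 and 680 CPM in NS and 406 and 416 CPM in knockdown cells. Col4a2 was at 771 and 777 CPM in NS and 937 and 943 CPM in knockdown cells (both DMSO-treated), and at 750 and 741 against 987 and 1024 CPM under the drugs. The knockdown libraries were thus the low ones for Col4a1 and the high ones for Col4a2. Col4a1 fell with the knockdown by 0.87 ± 0.03 on the log2 scale under DMSO (adjusted p = 1.02e-18) and by 0.72 ± 0.03 under the drugs (7.04e-17), while Col4a2 rose by 0.28 ± 0.03 (5.46e-09) and 0.43 ± 0.03 (1.22e-12).

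The ratio of Col4a1 to Col4a2 per length, which is free of scaling between libraries, was 0.853 and 0.867 in NS cells and 0.389 and 0.385 in knockdown cells under DMSO. With Dox and 4OHT it was 0.882 and 0.895 in NS and 0.402 and 0.396 in knockdown cells. The genotypes were well apart and the treatments close. The sources used here do not say whether the counting used strand. The part of reads from the shared first bases in these values was not tested. With Dox and 4OHT the changes of both genes were small: -0.01 ± 0.03 and -0.05 ± 0.03 in NS cells (adjusted p = 0.898 and 0.161), and 0.14 ± 0.03 and 0.10 ± 0.03 in knockdown cells (0.00107 and 0.0114). The rise of Col4a2 was 0.08 without knockdown DMSO replicate 1 (adjusted p = 0.0916) and 0.07 without knockdown Dox-4OHT replicate 2 (0.185). Their interactions, 0.15 ± 0.05 and 0.15 ± 0.04 (adjusted p = 0.0112 and 0.00584), did not pass without knockdown Dox-4OHT replicate 2 (0.13 and 0.12, adjusted p = 0.0668 and 0.0612). That of Col4a1 did not pass without NS DMSO replicate 2 either (0.12, adjusted p = 0.0851).

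Col4a5, a chain of specialised basement membranes in kidney, skin and other epithelia, was the abundant type IV chain that differed most between groups. Both DMSO-treated NS libraries held 284 CPM, and the drug-treated ones 172 and 173 CPM. In knockdown cells it was at 445 and 422 CPM under DMSO and at 558 and 536 CPM under the drugs. The 4 groups did not overlap, and the drugs went with lower levels in NS cells and higher levels in knockdown cells. The knockdown effect was 0.61 ± 0.04 under DMSO (adjusted p = 2.77e-14) and 1.66 ± 0.04 under the drugs (1.96e-23), a 3.17-fold difference. The log2 change with the drugs was -0.72 ± 0.04 in NS cells (6.86e-15) and 0.34 ± 0.03 in knockdown cells (1.28e-08), and the interaction was 1.06 ± 0.05 (1.03e-14). Per length, Col4a5 RNA was at 0.430 and 0.420 of the level of Col4a1 in NS cells under DMSO and at 1.21 and 1.16 in knockdown cells, and under the drugs at 0.259 and 0.260 against 1.40 and 1.31. In knockdown cells its RNA was thus above that of Col4a1, in NS cells below it.

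**Figure D3:**
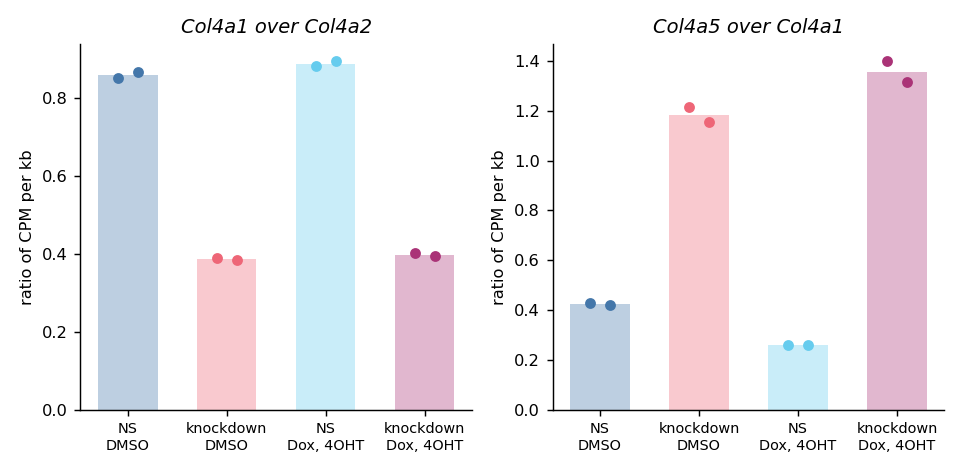
Ratio of CPM per kb of Col4a1 to Col4a2 (left) and of Col4a5 to Col4a1 (right) in the 4 groups; bars are means of 2 libraries and points the single libraries. The left ratio is 0.853 to 0.895 in the 4 NS libraries and 0.385 to 0.402 in the 4 knockdown libraries, and the right ratio is 0.259 to 0.430 and 1.16 to 1.40.

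Col4a6 stands head to head with Col4a5 on the X chromosome, with 1342 bases between their annotated starts, and encodes a chain found beside the Col4a5 chain in skin. It had 11.5 and 6.5 counts in NS cells under DMSO, 10 and 9.5 in knockdown cells under DMSO, 2.5 and 1.5 in NS cells under Dox and 4OHT, and 10.5 and 6 in knockdown cells under Dox and 4OHT. Per length the ratio of Col4a5 to Col4a6 was 408 to 1616 over the libraries, so the members of this pair were at very different levels. Its fall with the drugs in NS cells, by 1.93 ± 0.69 on the log2 scale, passed (adjusted p = 0.0257), but not by DESeq2 (0.192) nor without NS DMSO replicate 1 (-1.45, 0.25) or either NS library under the drugs (-1.96 and -1.89, 0.0979 and 0.115). The rise with the knockdown under the drugs of 1.86 ± 0.71 (adjusted p = 0.0251) did not pass by DESeq2 (0.154), without those 2 libraries (1.89 and 1.83, 0.0869 and 0.101) or without knockdown Dox-4OHT replicate 1 (1.59, 0.16). The NS libraries under the drugs were the lowest.

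Col4a3, whose chain assembles with the products of Col4a4 and Col4a5, went the other way from Col4a5 with the knockdown. It had 48.5 and 58 counts in NS cells under DMSO and 6.5 and 1.5 in knockdown cells under DMSO. With the drugs it had 17 and 21.5 counts in NS and 5.5 and 9 in knockdown cells. Both knockdown groups lay below both NS groups. The log2 changes with the knockdown were -3.55 ± 0.41 (adjusted p = 2.64e-08) and -1.44 ± 0.44 (0.0065), and the fall with the drugs in NS cells was -1.26 ± 0.29 (0.000804; 0.0675 by DESeq2). The knockdown effect under the drugs did not pass by DESeq2 (0.0588), without NS Dox-4OHT replicate 2 (-1.28, 0.0571) or without knockdown Dox-4OHT replicate 1 (-1.05, 0.106). The interaction of 2.11 ± 0.71 (adjusted p = 0.0199) did not pass by DESeq2 (0.0849), nor without NS DMSO replicate 2 (1.86, 0.0513), knockdown DMSO replicate 2 (1.47, 0.144) or knockdown Dox-4OHT replicate 2 (1.67, 0.17).

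Col7a1, the chain of the anchoring fibrils that tie the epidermis to the dermis, was lower with the knockdown and with the drugs. Under DMSO the NS libraries held 679 and 662 CPM and the knockdown libraries 285 and 290 CPM. The drug-treated libraries held 339 and 329 CPM in NS and 211 and 221 CPM in knockdown cells. The NS libraries under DMSO were the highest and the knockdown libraries under the drugs the lowest. The log2 changes were -1.22 ± 0.03 for the knockdown under DMSO (adjusted p = 3.52e-21) and -1.01 ± 0.03 for the drugs in NS cells (1.04e-18). Each was smaller in the presence of the other, at -0.63 ± 0.04 and -0.41 ± 0.04 (1.68e-14 and 5.15e-10), and the interaction was 0.59 ± 0.05 (3.92e-10).

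Col6a1, a chain of the beaded filaments around basement membranes, was at 5.66 and 4.80 CPM in NS and 0.687 and 0.738 CPM in knockdown cells (both DMSO-treated). Drug-treated libraries held 4.44 and 2.86 CPM in NS and 1.86 and 1.80 CPM in knockdown cells. The knockdown groups lay below the NS groups. The knockdown effect was -2.91 ± 0.30 under DMSO (adjusted p = 2.36e-09) and -1.01 ± 0.26 under the drugs (0.00156), the latter being -0.65 without NS Dox-4OHT replicate 1 (0.0752). In knockdown cells Col6a1 rose with the drugs by 1.37 ± 0.38 (adjusted p = 0.00539), and the interaction was 1.90 ± 0.43 (0.000877). Its change in NS cells, -0.53 ± 0.20 (adjusted p = 0.0391), was -0.88 without NS Dox-4OHT replicate 1 (0.00741), -0.23 without NS Dox-4OHT replicate 2 (0.458) and -0.40 without NS DMSO replicate 1 (0.268), and did not pass by DESeq2 (0.361) or with only the 4 libraries compared (0.0502).

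Of the short-chain and multiplexin collagens, Col8a1 and Col18a1 were abundant and moved little. Col8a1 was at 503 and 486 CPM in NS and 508 and 497 CPM in knockdown cells (both DMSO-treated), and at 390 and 378 against 430 and 441 CPM under Dox and 4OHT. Col18a1, whose product carries the endostatin fragment, was at 583 and 597 CPM in NS and 592 and 588 CPM in knockdown cells (both DMSO-treated), and at 477 and 484 against 595 and 584 CPM under the drugs. For Col18a1 the NS libraries under the drugs alone were low. It fell with the drugs in NS cells by 0.30 ± 0.03 on the log2 scale (adjusted p = 1.57e-08), with 0.00 ± 0.03 in knockdown cells (0.992) and an interaction of 0.30 ± 0.04 (6.84e-06). Col8a1 fell by 0.37 ± 0.03 in NS (9.15e-10) and 0.21 ± 0.03 in knockdown cells (1.9e-05). The interaction of Col8a1, 0.16 ± 0.05 (adjusted p = 0.00879), did not pass without NS DMSO replicate 1 (0.13, 0.091), NS Dox-4OHT replicate 2 (0.13, 0.0503) or knockdown Dox-4OHT replicate 2 (0.14, 0.0577). With the knockdown under DMSO the changes were 0.02 ± 0.03 for Col8a1 (0.569) and 0.00 ± 0.03 for Col18a1 (0.995), and under the drugs both rose, by 0.18 ± 0.03 (3.85e-05) and 0.30 ± 0.03 (6.66e-09).

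The FACIT collagens, which sit on the surface of fibrils, were divided. Col9a3 fell with the knockdown, Col16a1 rose, and Col12a1 and Col20a1 did not pass. Col9a3 was at 16.6 and 12.1 CPM in NS and 2.02 and 1.90 CPM in knockdown cells (both DMSO-treated), and at 18.1 and 20.4 against 2.67 and 3.20 CPM under Dox and 4OHT. The genotypes did not overlap. The log2 changes were -2.90 ± 0.20 (adjusted p = 3.17e-12) and -2.72 ± 0.17 (8.16e-13), with an interaction of 0.18 ± 0.31 (0.69). The rise of Col9a3 with the drugs in NS cells, 0.41 ± 0.12 (adjusted p = 0.00829), was 0.67 without NS DMSO replicate 1 (0.000489) and did not pass without NS DMSO replicate 2 (0.21, 0.224), without NS Dox-4OHT replicate 2 (0.32, 0.114) or by DESeq2 (0.163).

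Col16a1 was at 45.9 and 47.4 CPM in NS and 59.9 and 53.9 CPM in knockdown cells (both DMSO-treated). The drug-treated libraries held 33.6 and 37.6 CPM in NS and 54.8 and 52.4 CPM in knockdown cells, so the knockdown libraries were the higher ones in both. It rose with the knockdown by 0.29 ± 0.06 (adjusted p = 0.00043) and 0.59 ± 0.07 (3.92e-08), and fell with the drugs in NS cells, with -0.39 ± 0.07 (6.2e-05). Its interaction of 0.30 ± 0.10 (0.0132) did not pass by DESeq2 (0.118), without NS DMSO replicate 2 (0.27, 0.0512), knockdown DMSO replicate 2 (0.22, 0.0923), NS Dox-4OHT replicate 1 (0.21, 0.111) or knockdown Dox-4OHT replicate 1 (0.27, 0.0638). Col20a1, at 0.439 to 0.821 CPM, passed in no comparison.

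Fbn2, the fibrillin of developing tissue, had the second largest fall with the knockdown. It was at 252 and 195 CPM in DMSO-treated NS cells and at 72.2 and 52.8 CPM in drug-treated NS cells. In knockdown cells it was at 9.13 and 9.87 CPM under DMSO and at 4.07 and 5.12 CPM under the drugs. The 4 groups lay in this order without overlap. The log2 changes with the knockdown were -4.56 ± 0.28 under DMSO (adjusted p = 0.000197) and -3.77 ± 0.40 under the drugs (0.00137), and with the drugs -1.85 ± 0.21 in NS cells (0.00283). In knockdown cells the change with the drugs of -1.06 ± 0.59 did not pass (adjusted p = 0.257), although it did by DESeq2 (-1.05, 0.00205) and with only the 4 libraries compared (-1.07, 3.08e-05). The interaction was 0.78 ± 0.66 (0.434). Fbn1, the fibrillin of adult tissue, had 12 counts over all 8 libraries.

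Fn1 was the most abundant of the genes and the one with the opposite interaction. It was at 1907 and 1836 CPM in NS and 2205 and 2402 CPM in knockdown cells (both DMSO-treated), and at 2649 and 2406 against 1794 and 2116 CPM under Dox and 4OHT. Thus it was higher in knockdown than in NS libraries under DMSO and lower under the drugs, without overlap in either. In NS cells it rose with the drugs by 0.43 ± 0.11 (adjusted p = 0.0346), while the change of knockdown cells was -0.24 ± 0.11 (0.174), with an interaction of -0.67 ± 0.15 (0.0288). The knockdown effect was 0.30 ± 0.11 under DMSO (0.0693) and -0.37 ± 0.11 under the drugs (0.0393).

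The calls of Fn1 depended on single libraries. Those in NS cells and of the interaction did not pass without any one NS library or knockdown DMSO library (0.37 to 0.50, adjusted p = 0.0607 to 0.151, and -0.74 to -0.61, 0.0576 to 0.102). That under the drugs did not pass without any of these 6 either (-0.43 to -0.30, 0.067 to 0.165), nor with only the 4 libraries compared (0.13). The 2 changes that did not pass in the full data did so elsewhere. The one under DMSO passed by DESeq2 (adjusted p = 0.0171), with only the 4 libraries compared (5.45e-07) and without either knockdown library under the drugs (0.000115 and 0.000132). The one in knockdown cells passed without knockdown Dox-4OHT replicate 2 (-0.36, 0.000621).

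The spread of Fn1 was shared by other long transcripts. Between replicates 1 and 2 of a group Fn1, Col12a1 and Fbn2 deviated in the same direction in all 4 groups, by 0.06, 0.16 and 0.37 on the log2 scale in NS cells under DMSO, 0.14, 0.30 and 0.45 in NS cells under the drugs, -0.12, -0.13 and -0.10 in knockdown cells under DMSO, and -0.24, -0.32 and -0.32 in knockdown cells under the drugs. Col7a1, of 9078 bases, deviated in the same directions but by less, at 0.04, 0.04, -0.03 and -0.06 in that order. The median over all 531 tested genes of at least 8000 bases deviated the same way, by 0.055, 0.108, -0.066 and -0.111, while genes under 2000 bases were at -0.007, -0.035, 0.011 and 0.012. With a correction for transcript length, added after this was seen, Fn1 rose in NS cells by 0.40 ± 0.04 (adjusted p = 1.69e-06) and fell in knockdown cells, with -0.25 ± 0.04 (0.000246). So corrected, it was higher with the knockdown under DMSO by 0.27 ± 0.04 (5.2e-05) and lower under the drugs, with -0.38 ± 0.04 (1.4e-06). The correction moved these log2 changes little, while their SE had been 0.11 without it. For the knockdown under DMSO an SE of 0.04 was also found without the correction, with only the 4 libraries compared. The part of transcript length in the spread of Fn1 was not tested.

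Col12a1, a large FACIT collagen of the dermis, was at 548 and 490 CPM in NS and 546 and 597 CPM in knockdown cells (both DMSO-treated). Drug-treated libraries held 342 and 278 CPM in NS and 314 and 392 CPM in knockdown cells. The treatments did not overlap and the genotypes did. The change with the drugs was -0.75 ± 0.17 in NS (adjusted p = 0.027) and -0.70 ± 0.17 in knockdown cells (0.0368), and with the length correction -0.78 ± 0.09 (0.00125) and -0.72 ± 0.09 (0.00207). Without the correction the call in NS cells did not pass without NS DMSO replicate 1 or 2 (-0.66 and -0.82, 0.13 and 0.0755), either knockdown DMSO library (-0.74, 0.0578 and 0.0575) or NS Dox-4OHT replicate 2 (-0.60, 0.115). The call in knockdown cells did not pass without any one library under DMSO (-0.77 to -0.63, 0.0715 to 0.157) or either knockdown library under the drugs (-0.54 and -0.86, 0.132 and 0.0511). Both calls ended with only the 4 libraries compared (0.0645 and 0.0981).

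**Figure D4:**
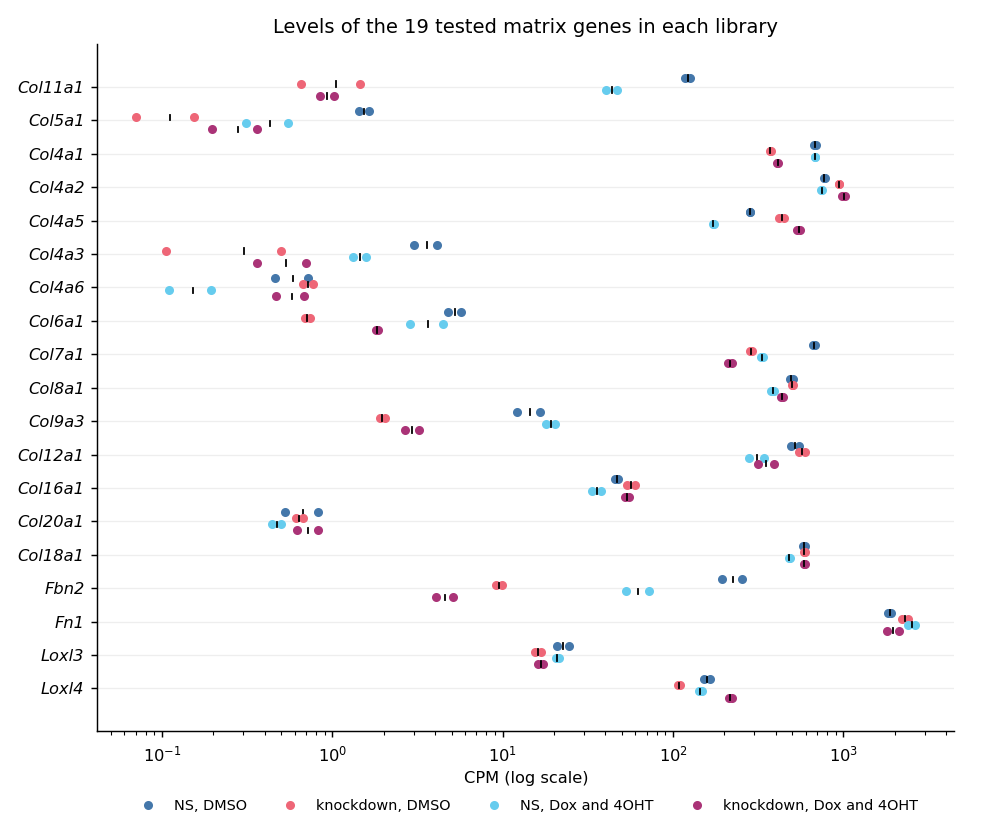
CPM (log axis) of the 19 tested genes in the 8 libraries; points are libraries, coloured by group, and short lines the means of 2. Col11a1 spans from 0.649 to 126 CPM and Fbn2 from 4.07 to 252 CPM, with the knockdown libraries at the low end, while Col8a1 and Col18a1 stay within 378 to 597 CPM.

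The lysyl oxidases measured here were Loxl3 and Loxl4. Lox, Loxl1 and Loxl2 were too low to test, with at most 8 counts in a library. Loxl4 was at 153 and 164 CPM in NS and 106 and 109 CPM in knockdown cells (both DMSO-treated), and at 148 and 141 against 221 and 212 CPM under Dox and 4OHT. The knockdown libraries were the lowest under DMSO and the highest under the drugs. The knockdown effect was -0.55 ± 0.04 under DMSO (adjusted p = 2.81e-11) and 0.59 ± 0.04 under the drugs (3.43e-12). With the drugs Loxl4 rose 2.01-fold in knockdown cells, by 1.01 ± 0.04 on the log2 scale (5.35e-16), and the interaction was 1.14 ± 0.06 (9.62e-14). Its small fall in NS cells, -0.13 ± 0.04 (adjusted p = 0.0158), did not pass by DESeq2 (0.125), without NS DMSO replicate 2 (-0.08, 0.267) or without NS Dox-4OHT replicate 2 (-0.10, 0.145).

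Loxl3 was at 20.9 and 24.6 CPM in NS and 16.8 and 15.5 CPM in knockdown cells (both DMSO-treated), and at 21.3 and 20.4 against 16.2 and 17.2 CPM under the drugs. All 4 knockdown libraries lay below all 4 NS libraries. It fell with the knockdown by 0.49 ± 0.10 on the log2 scale under DMSO (adjusted p = 9.69e-05) and by 0.33 ± 0.10 under the drugs (0.00656). The latter did not pass by DESeq2 (0.0991) or without knockdown Dox-4OHT replicate 1 (-0.28, 0.0691). With the drugs its changes were -0.12 ± 0.09 in NS and 0.05 ± 0.11 in knockdown cells (0.328 and 0.767), and the interaction was 0.17 ± 0.14 (0.381).

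The other genes of the pathway were read from 3 lists. Of 28 genes for making and processing collagen 21 were tested. With the knockdown 11 fell and 5 rose under DMSO (median log2 change -0.21, with 31.0% of all genes lower and 30.9% higher), and 9 fell and 8 rose under the drugs (median 0.04, with 29.7% and 30.5% of all genes). P3h4, a partner of the lysyl hydroxylases, fell under both treatments (-0.76 ± 0.07 and -0.70 ± 0.08). The collagen-binding glycoprotein gene Sparc and the collagen chaperone gene Serpinh1 fell under DMSO (-0.44 ± 0.03 and -0.28 ± 0.04), and under the drugs their values were -0.10 ± 0.03 and -0.11 ± 0.04 (adjusted p = 0.00915 and 0.00869). These small values under the drugs did not pass by DESeq2 (0.0761 and 0.0927), without NS Dox-4OHT replicate 2 (-0.07 and -0.06, 0.0962 and 0.216) or without knockdown Dox-4OHT replicate 2 (-0.08 and -0.11, 0.122 and 0.0522), and that of Serpinh1 not without knockdown Dox-4OHT replicate 1 (-0.11, 0.0505). P4hb and P4ha1, subunits of the prolyl hydroxylase that stabilises the helix, rose under DMSO (0.15 ± 0.03 and 0.26 ± 0.06) and under the drugs (0.31 ± 0.03 and 0.50 ± 0.05). Bmp1, the protease that removes the procollagen C-terminus, was higher in knockdown cells under the drugs, by 0.47 ± 0.05. Its value under DMSO, -0.11 ± 0.05 (adjusted p = 0.0353), did not pass by DESeq2 (0.2), without either NS library under DMSO (-0.09 and -0.12, 0.225 and 0.0818), without knockdown DMSO replicate 2 (-0.03, 0.666) or without either NS library under the drugs (-0.10, 0.0514 and 0.0515).

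Dox and 4OHT went with 4 of these 21 genes higher and 10 lower in NS cells (median -0.13, with 20.8% of all genes higher and 21.3% lower), and with 7 higher and 2 lower in knockdown cells (median 0.07, with 19.5% and 16.6% of all genes). P4ha1 and P4ha2 rose in both, by 0.61 ± 0.06 and 0.52 ± 0.06 in NS and by 0.86 ± 0.06 and 1.21 ± 0.06 in knockdown cells. So did the lysyl hydroxylase gene Plod2, by 0.75 ± 0.15 in NS and 1.28 ± 0.18 in knockdown cells, with an interaction that did not pass (adjusted p = 0.0807). Bmp1 fell in NS cells (-0.40 ± 0.05) and was at 0.18 ± 0.05 in knockdown cells (adjusted p = 0.0033), or 0.10 without knockdown DMSO replicate 2 (0.17). The interaction passed upward for 8 and downward for 1 (20.2% and 18.0% of all genes), with Bmp1 at 0.58 ± 0.07, P4ha2 at 0.69 ± 0.08 and Sparc at 0.34 ± 0.04.

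Of 20 genes listed as partners of elastic fibres and microfibrils 11 were tested. Mfap1a among them was listed for its name, while its product is known as a splicing protein of the nucleus. Under DMSO it was at 22.9 and 22.7 CPM in NS and 14.8 and 15.5 CPM in knockdown cells. With the knockdown 8 of them fell and none rose under DMSO (median -0.59, with 31.0% of all genes lower, 30.9% higher and a median of 0.00), and 7 fell and 1 rose under the drugs (median -0.37, with 29.7% of all genes lower and 30.5% higher). Fbln2, a fibulin that binds fibrillin and fibronectin, fell under both treatments (-1.68 ± 0.08 and -2.06 ± 0.08), as did its relative Fbln1 (-0.81 ± 0.10 and -0.70 ± 0.09). The genes of the proteins that tie latent TGF-beta to microfibrils fell under both as well, Ltbp4 (-0.78 ± 0.04 and -0.46 ± 0.04), Ltbp1 (-0.73 ± 0.04 and -0.37 ± 0.04) and Ltbp3 (-0.51 ± 0.05 and -0.50 ± 0.05). Adamtsl4, a fibrillin-binding protein, fell under DMSO (-0.93 ± 0.06) and rose under the drugs (0.46 ± 0.06). Elastin itself (Eln) had no count.

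In the same list, 3 rose and 4 fell with Dox and 4OHT in NS cells (median -0.07, with 20.8% of all genes higher and 21.3% lower), and 4 rose and none fell in knockdown cells (median 0.05, with 19.5% and 16.6% of all genes). Ltbp3 rose by 0.44 ± 0.05 in both and Fbln1 by 0.46 ± 0.09 in NS and 0.57 ± 0.11 in knockdown cells. Ltbp4 fell in NS cells (-0.23 ± 0.03) and was at 0.08 ± 0.04 in knockdown cells (adjusted p = 0.0751). Ltbp1 was at -0.07 ± 0.04 in NS cells (adjusted p = 0.0909, and 0.00952 with the length correction) and rose by 0.28 ± 0.04 in knockdown cells. Adamtsl4 fell in NS cells (-1.19 ± 0.06). Its value in knockdown cells, 0.20 ± 0.06 (adjusted p = 0.014), did not pass by DESeq2 (0.116), without knockdown DMSO replicate 2 (0.12, 0.233) or without knockdown Dox-4OHT replicate 1 (0.15, 0.182). The interaction passed upward for 4, among them Adamtsl4 (1.39 ± 0.09), Ltbp1 (0.35 ± 0.05) and Ltbp4 (0.32 ± 0.05), and downward for 1 (20.2% and 18.0% of all genes).

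Of 18 collagen and fibronectin receptors 14 were tested. With the knockdown 5 rose and 5 fell under DMSO (median 0.28, with 30.9% of all genes higher and 31.0% lower), and 7 rose and 4 fell under the drugs (median 0.29, with 30.5% and 29.7% of all genes). Mrc2, a collagen receptor counted in the falls under DMSO, had 42 and 28 counts in NS and 8 and 4 in knockdown cells there. It had enough counts to be tested only through NS cells under DMSO, so the filter favoured this fall. Cd44, which binds hyaluronan and matrix proteins, rose by 0.70 ± 0.03 and 0.69 ± 0.03, and Itgb1, the shared beta subunit of integrins, by 0.31 ± 0.03 under either treatment. Itga1, a collagen receptor subunit, fell under both (-2.30 ± 0.17 and -0.98 ± 0.24). Itga2, another collagen receptor subunit, was at -0.01 ± 0.05 under DMSO (adjusted p = 0.823) and rose by 0.78 ± 0.05 under the drugs. Itga5, the fibronectin receptor subunit, fell under DMSO (-0.92 ± 0.07). Under the drugs its value of -0.20 ± 0.06 (adjusted p = 0.00915) did not pass by DESeq2 (0.138), without NS Dox-4OHT replicate 1 (-0.16, 0.0872) or without knockdown Dox-4OHT replicate 2 (-0.15, 0.104).

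Among these receptors 6 rose and 5 fell with Dox and 4OHT in NS cells (median 0.10, with 20.8% of all genes higher and 21.3% lower), and 6 rose and none fell in knockdown cells (median 0.20, with 19.5% and 16.6% of all genes). Itga8, an integrin subunit, is among the rises in both, at 4.22 ± 0.52 and 2.72 ± 0.55. It had 2 to 3.5 counts a library under DMSO and 18 to 45 under the drugs. It had enough counts to be tested only through drug-treated cells, so the filter favoured these rises. Mrc2, counted in the falls in NS cells, had 7.5 and 8 counts in NS cells under the drugs. The filter favoured that fall for the reason given above. Cd44 rose by 0.65 ± 0.03 in both, and the syndecan gene Sdc4 by 0.33 ± 0.03 and 0.32 ± 0.03. Itga1 and Itga2 fell in NS cells (-1.82 ± 0.16 and -0.80 ± 0.05) and were at -0.51 ± 0.26 and -0.01 ± 0.05 in knockdown cells (adjusted p = 0.13 and 0.875), Itga1 passing there without knockdown DMSO replicate 1 (-0.79, 0.0304). Itga5 rose in knockdown cells by 0.88 ± 0.07. Its value of 0.16 ± 0.06 in NS cells (adjusted p = 0.041) did not pass by DESeq2 (0.294), with the length correction (0.055), without either NS library under DMSO (0.14 and 0.18, 0.193 and 0.0734) or without NS Dox-4OHT replicate 1 (0.13, 0.214). The interaction passed for 4, all upward, against 20.2% of all genes in that direction, among them the collagen receptor kinase gene Ddr1 (0.86 ± 0.08), Itga2 (0.79 ± 0.07) and Itga5 (0.72 ± 0.10).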

How the data were processed

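RNA of adherent cells was extracted on columns and made into TruSeq RNA libraries, per the labels' protocols. The deposited table holds 1 estimated count for each gene and library, and a length for each entry. It was made with TopHat and HOMER at the level of isoforms, per the labels. The build mm9 and DESeq2 are named in the submitters' processing notes. Strand use, versions and the handling of shared reads: not given in the sources used here. Columns were matched to samples by name. For a repeated symbol the entry with more counts was kept (2 dropped, 24907 left). The design of the tests had assumed counts, and the expected counts were rounded for them.

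The tests used edgeR 4.0.16 (R 4.3.3): filterByExpr (12538 genes kept, 99.96% of counts), TMM scaling, 1 model over all 8 libraries with the 4 groups as means, which leaves 4 residual degrees of freedom, and the robust quasi-likelihood F test, two-sided, called at a Benjamini-Hochberg adjusted p of 0.05. Every adjusted p is from this test unless DESeq2 (1.42.0) is named. A gene of low counts could pass the filter through the groups where it was high alone, and differences from those groups were then favoured. The SE of a log2 change is its size over the square root of F. CPM use TMM and unrounded counts, and CPM per kb the deposited lengths. The binomial intervals, and the floor of 3 counts, hold counting error alone.

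The members and lists were chosen with earlier results of these data known. Library values are given for members with a mean of at least 5 CPM in a group that passed in at least 1 comparison, and for some below that level, chosen after their values were seen. Of each pathway list up to 3 members with the smallest p among those called are named per comparison, and for most of them the matching value under the other treatment or in the other cells was added after seeing the data. Itga8 and Mrc2 were also added after seeing the data, without the alternatives below. Replicate numbers were not taken to pair the samples. Alternatives were DESeq2, RLE scaling, no filter, a replicate block, a fit of only the 4 libraries a comparison needs, Rn45s left out, a 2-fold minimum, each library left out in turn with the filter applied anew, and a length correction (a loess trend of each library on log length, as an offset) added after seeing the data.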

Additional observations from a re-analysis of the deposited data

Results flagged for a closer look

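By the interaction test, the response to Dox and 4OHT differed between knockdown and NS cells for 13 of the 19 tested matrix genes. Over all genes it differed for 38.2%. In knockdown minus NS cells, on the log2 scale, the differences were 3.04 for Col5a1 (a value that rests on 3 counts in knockdown cells under DMSO and depends on the prior count), 2.11 for Col4a3, 1.90 for Col6a1, 1.34 for Col11a1, 1.14 for Loxl4, 1.06 for Col4a5 and 0.59 for Col7a1. They were 0.30 for Col18a1 and for Col16a1, 0.16 for Col8a1, 0.15 for Col4a1 and for Col4a2, and -0.67 for Fn1. Those of Col6a1, Loxl4, Col4a5, Col7a1 and Col18a1 passed under every alternative run for single genes, whereas those of the other 8 did not pass under at least 1.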

How the results depend on the processing

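Over 202 log2 changes of single genes, 2976 alternative values were computed. Of these, 149 no longer passed, 23 newly passed and 19 changed sign, while 2785 showed none of these changes. Signs were compared after rounding to 2 decimals, so no change of sign was counted where the main or the alternative value was 0.00. Col18a1 with the drugs in knockdown cells is such a case (0.00, from -0.01 to 0.01 when single libraries were left out). In all alternatives 142 of the 202 results showed none of these changes, among them those of Tgfbr1. A required change of at least 2-fold left 6 called genes for the drugs in NS cells, 2 for the drugs in knockdown cells, 7 for the knockdown under either treatment and 6 for the interaction. The counts that follow are in the order drugs in NS cells, drugs in knockdown cells, knockdown under DMSO, knockdown under the drugs and interaction. DESeq2 called 9, 9, 15, 13 and 10, out of 21, 18, 31, 25 and 16 members that it gave an adjusted p. By edgeR 15, 8, 13, 16 and 13 were called, each out of 19. Over all genes DESeq2 called 3106, 2481, 5681, 5607 and 2681 against 5281, 4531, 7763, 7542 and 4791 by edgeR. Leaving out single libraries gave 10 to 16, 6 to 8, 14 to 16, 13 to 16 and 8 to 11. The cause of these shifts was not tested. Values counted as changing sign when single libraries were left out had not passed before: Col4a1 with the drugs in NS cells (-0.02 to 0.01), in knockdown cells Col20a1 (-0.02 to 0.24), Col11a1 (-0.61 to 0.59) and Loxl3 (-0.02 to 0.10), with the knockdown under DMSO Col20a1 (-0.36 to 0.41) and Col4a6 (-0.02 to 0.78), and in the interaction Col9a3 (-0.09 to 0.37) and Col12a1 (-0.12 to 0.20), as well as, in the pathway lists, Fbln2 with the drugs in knockdown cells (-0.09 to 0.14), Itga2 with the knockdown under DMSO (-0.05 to 0.04) and, in the interaction, Cd44 (-0.03 to 0.01), Sdc4 (-0.05 to 0.01) and P3h4 (-0.03 to 0.16). Without the filter Fn1 did not pass in NS cells (adjusted p = 0.0501) or under the drugs (0.0606), nor Col12a1 in knockdown cells (0.0503). With the length correction Col4a2 passed in NS cells (-0.08, 0.0267).

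Replicate numbers did not pair the samples: same-numbered libraries of 2 groups correlated in their deviations at -0.04 to 0.06 over genes. With the replicate number as a block the counts of members called were 13, 8, 13, 15 and 13. Over all genes they were 5319, 4559, 7777, 7554 and 4814. Under that block Fn1 did not pass in NS cells (adjusted p = 0.0696), under the drugs (0.0738) or in the interaction (0.0615), nor Col12a1 with the drugs (0.0618 and 0.0788), and Fbn2 newly passed in knockdown cells (-1.08, 0.0054) and in the interaction (0.76, 0.0461). Depth limits the 6 tested members with fewer than 10 counts in at least 1 library (Col5a1, Col4a3, Col4a6, Col20a1, Col11a1 and Col6a1), for which one side of a comparison can rest on few counts.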

Other observations

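Among the 32 genes too low to test, 5 passed in a fit without the filter on low counts. That fit tested 41 of the 51 members. Over all genes it called 5374 with the drugs in NS cells and 4656 in knockdown cells. With the knockdown it called 7933 under DMSO and 7664 under the drugs. The share of all genes below the filter that passed was not computed. Col5a2, a partner of Col5a1, had 17.5 and 9.5 counts in NS cells under DMSO, 0.5 and 1 in knockdown cells under DMSO, 1 and 1.5 in NS cells under Dox and 4OHT, and 0 in both knockdown libraries under the drugs. The ratio of NS to knockdown cells under DMSO was 12.2 (95% interval 3.07 to 106, exact binomial on rounded counts) and that of DMSO to the drugs in NS cells 11.9 (2.99 to 103). Lox, the founding lysyl oxidase, had 7.5 and 8 counts in NS and 1 and 1 in knockdown cells under DMSO, a ratio of 7.25 (1.70 to 65.0). Col4a4, the partner of Col4a3, had 11 and 14 against 4.5 and 4 counts there (log2 change -1.46 ± 0.63, adjusted p = 0.0452 by edgeR). Higher in knockdown cells under the drugs were Col15a1, a multiplexin, with 8 and 7.5 counts against 1 and 1.5 in NS cells under the drugs, a ratio of 7.56 (1.78 to 67.8), and against 2.5 and 0.5 in knockdown cells under DMSO, a ratio of 5.18 (1.48 to 27.7). Loxl1 had 6 and 3.5 counts in knockdown and none in NS cells under the drugs, at least 3.15-fold higher with a floor of 3 counts over the group. These genes were picked for having passed, so the values describe them and support nothing further.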
